A study of Sus scrofa with 63 samples.

Results

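Cell cycle and proliferation genes were described in the jejunum of pig fetuses in late gestation. The list held 50 genes, chosen by name for their role in DNA replication, in the cyclin and kinase machinery or in mitosis. Members were found as every array probe whose gene name equals a listed symbol. Of the 50 genes, 39 had at least 1 probe, with 68 probes in all among the 60305 probes of the array. Signal was high enough to test 35 genes, through 60 of the 40515 probes tested.

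RNA came from a middle segment of the jejunum of 63 male fetuses taken at day 90 or day 110 of gestation, with 1 fetus on each one-colour Agilent porcine array. Large White (LW) is a European breed and Meishan (MS) a Chinese breed. LW and MS fetuses were purebred, LWMS fetuses had an LW sire and an MS sow, and MSLW fetuses had an MS sire and an LW sow. At day 90 there were 9 LW, 6 MS, 9 LWMS and 8 MSLW fetuses, and at day 110 there were 9 LW, 7 MS, 9 LWMS and 6 MSLW fetuses. A litter could hold both purebred and crossbred fetuses. Because the labels do not name the sow, fetuses of 1 litter enter the fits as if unrelated. This can make p-values too small for age, for the breed of the sow, for MS against LW fetuses and for differences between genotypes in their change with age.

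In the intestine, cells divide in the crypts and stop dividing as they move on to the villus, where they become absorptive or secretory cells. Division is driven by cyclins, which activate cyclin-dependent kinases (CDK) in turn. The D-type cyclins with CDK4 and the E-type cyclins with CDK2 lead the cell into DNA replication, for which the MCM helicase is loaded on DNA with the help of CDC6 and kept from being loaded again by geminin (GMNN). The B-type cyclins with CDK1, the Aurora and Polo kinases and the spindle proteins carry it through mitosis, which ends when CDC20 and UBE2C direct the destruction of cyclin B and securin (PTTG1). CDKN1A and CDKN1B inhibit the cyclin-dependent kinases. Many of the genes of replication and mitosis are transcribed mainly in dividing cells, so their level in a tissue is widely used as a measure of how much of it divides.

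Each gene was read by probes of 60 bases. The probe sequences of 6 genes are shown, 5′ to 3′ as the array files give them. The levels below rest on them, except those of CDK4, which come from its brightest probe, not shown here. The probe of MCM2 read the gene with the largest change with age. The probes of CCNB2, CDC20 and PLK1 read genes of mitosis that fell in LWMS fetuses, and that of CDK4 gave a larger change than the brightest probe of the same gene. The probe of CCND1 stood apart from those of the other members.
MCM2: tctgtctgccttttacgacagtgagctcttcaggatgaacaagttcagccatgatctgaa
CCNB2: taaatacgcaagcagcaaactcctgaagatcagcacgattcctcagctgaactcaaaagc
CDC20: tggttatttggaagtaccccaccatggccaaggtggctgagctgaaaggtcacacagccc
PLK1: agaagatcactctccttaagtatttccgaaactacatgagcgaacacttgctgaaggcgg
CDK4: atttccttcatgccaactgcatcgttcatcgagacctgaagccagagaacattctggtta
CCND1: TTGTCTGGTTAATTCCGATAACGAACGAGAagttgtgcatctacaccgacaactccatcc
The capitals in the CCND1 probe mark its first 30 bases, which are taken here, from general knowledge and without a check against a sequence file, for a stretch of 18S ribosomal RNA. No stretch is marked in the others. The CDC20 sequence is carried by a pair of probes on the array, and BUB3 likewise has a pair of identical probes.

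Levels are the log2 of the background-corrected signal after the array's own 75th percentile was subtracted, so a level of 0 equals that percentile, and levels of different probes are not compared. A gene is represented by its brightest tested probe. Shares of all tested probes count every probe, dim ones and several of the same gene included, so they are only a rough background. Changes with age are day 110 minus day 90. A change was called where its p, adjusted over all 40515 probes with limma and the Benjamini-Hochberg method, did not exceed 0.01 and its log2 size reached 0.5. In RNA from whole tissue, fewer dividing cells and less of an RNA in each cell cannot be told apart.

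Over the 4 genotypes together, few of the genes were called with age. MCM2, CCNB1 and NUSAP1 were called lower, 3 of 35 genes beside 7.71% of all tested probes, and the kinase inhibitor CDKN1A was called higher, beside 6.07%. Together these are 4 of 35 genes, beside 13.8% of all probes, so the share called was no larger than that of the array as a whole. Without a minimum size of the difference, 21 of the 35 genes had an adjusted p of at most 0.01 and were lower at day 110, where 15.9% of all tested probes were, and 1 was higher, where 12.6% were. The lower genes were AURKA, AURKB, BIRC5, BUB1, CCNB1, CCNB2, CDC20, CDK1, CDK2, CDK4, CENPF, GMNN, KIF23, MCM2, MCM3, NUSAP1, PCNA, PLK1, PTTG1, TPX2 and UBE2C. Their differences were thus mostly small, and the median over the 35 genes was -0.31 on the log2 scale, beside -0.02 over all tested probes. With each array centred on its median instead of its 75th percentile, 10 genes were lower without a minimum size, and MCM2 and CDKN1A were the members called.

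**Figure D1:**
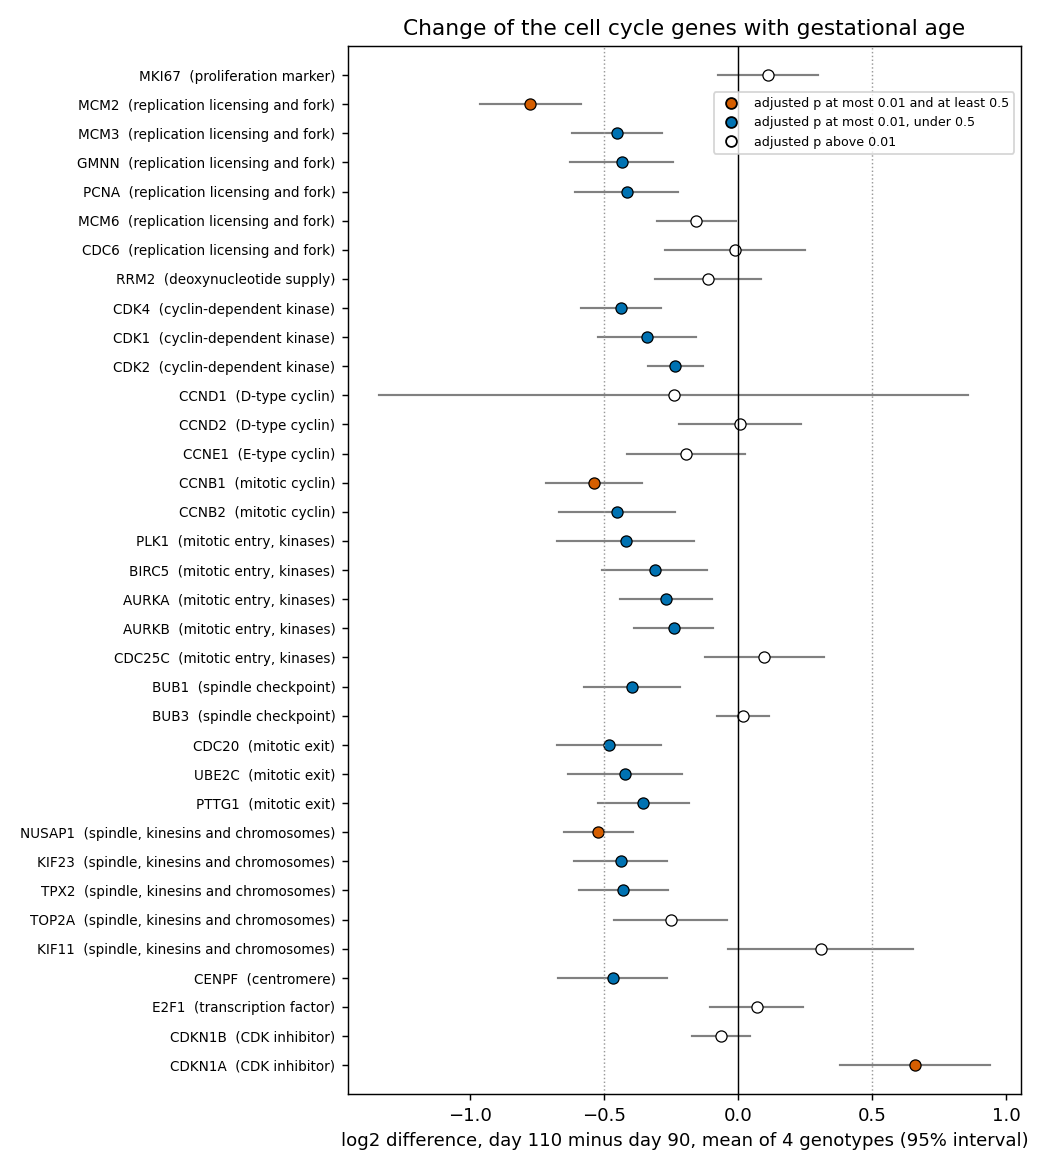
Log2 difference between day 110 and day 90 (x axis) for the 35 tested genes (y axis, grouped by role), as the mean of the 4 genotypes with its 95% interval. Orange points were called, blue points had an adjusted p of at most 0.01 but a difference under 0.5, and dotted lines mark 0.5 in each direction. Points lie left of 0 for 28 of the 35 genes.

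Among the genes of replication licensing and the replication fork, 4 of 6 tested genes were lower at day 110 at an adjusted p of at most 0.01. MCM2, a subunit of the replicative helicase, had levels of -0.69 to 0.98 (median 0.63) in the 32 fetuses of day 90 and of -1.12 to 0.58 (median -0.27) in the 31 fetuses of day 110. In 18 of the 32 fetuses of day 90 MCM2 lay above every fetus of day 110. Its difference was -0.78 on the log2 scale, or 1.71-fold lower (SE 0.094, adjusted p = 9.86e-10 with limma), and it was lower in all 4 genotypes. MCM3, another helicase subunit, ranged from -2.10 to -0.84 (median -1.19) at day 90 and from -2.58 to -0.69 (median -1.64) at day 110, so that the ages overlapped. PCNA, the sliding clamp of the DNA polymerases, had a log2 difference of -0.42 (SE 0.096) and GMNN one of -0.44 (SE 0.096). Over the genotypes neither PCNA nor GMNN was called, since both lay under the minimum size. MCM6, the other helicase subunit with a tested probe, had a difference of -0.16 with a 95% interval of -0.30 to -0.01 and did not pass. CDC6, the loading factor, had one of -0.01 with an interval of -0.27 to 0.25. RRM2, which supplies deoxynucleotides, had a difference of -0.11 and did not pass.

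Of the cyclin-dependent kinases, all 3 tested genes were lower at day 110 without a minimum size. CDK4, the partner of the D-type cyclins, ranged from 2.59 to 3.63 at day 90 and from 2.03 to 3.06 at day 110. In 13 fetuses of day 110 it lay below every fetus of day 90, and in 13 fetuses of day 90 above every fetus of day 110. The brightest CDK4 probe had a log2 difference of -0.44 and was not called, while its other 2 tested probes had differences of -0.52 and -0.56 and were called. CDK1, the kinase of mitosis, had a difference of -0.34 and CDK2 one of -0.23. None of the D-type and E-type cyclins passed. CCND2 had a difference of 0.01 with an interval of -0.22 to 0.23 and CCNE1 one of -0.20 with an interval of -0.42 to 0.03.

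The mitotic cyclins both passed without a minimum size. CCNB1 ranged from -0.12 to 1.36 (median 0.86) at day 90 and from -0.65 to 1.12 (median 0.36) at day 110. Its log2 difference was -0.54, or 1.45-fold lower (SE 0.090, adjusted p = 1.88e-06 with limma). At day 90 the CCNB1 levels of LW, MS and LWMS fetuses all lay at or above 0.62, while at day 110 each genotype had fetuses below this level. CCNB2 had a difference of -0.45 (SE 0.11) by the probe shown above, and its dimmer probe had one of -0.16 that did not pass.

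Of the 5 genes of mitotic kinases and proteins that act with them, 4 were lower. The differences were -0.42 for PLK1, -0.31 for BIRC5 (survivin, of the chromosomal passenger complex), -0.27 for AURKA and -0.24 for AURKB. CDC25C, the phosphatase that activates CDK1, had a difference of 0.10 with an interval of -0.12 to 0.32. Its medians at day 90 and day 110 were -2.19 and -2.04 by this probe, but -3.95 and -4.02 by its dimmer probe, in the other direction. Of the 3 AURKB probes, the brightest had the smallest difference, and another had one of -0.65 and was called. All 3 genes of mitotic exit were lower, with log2 differences of -0.48 for CDC20, -0.42 for UBE2C and -0.35 for PTTG1. The second CDC20 probe, of the same sequence, had -0.50 and was called, so this gene lies at the minimum size.

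NUSAP1, a microtubule-binding protein of the spindle, ranged from 1.11 to 1.92 (median 1.55) at day 90 and from 0.55 to 1.68 (median 1.04) at day 110. In 17 of the 31 fetuses of day 110 it lay below every fetus of day 90. Its log2 difference was -0.52, or 1.44-fold lower (SE 0.065, adjusted p = 1.70e-09 with limma). The spindle genes KIF23 and TPX2 had differences of -0.44 and -0.43 and the kinetochore protein gene CENPF one of -0.47 by its brightest probe. By group means this CENPF probe was lower at day 110 in 4 genotypes, and the other tested CENPF probes in 3, 3 and 2. In LW fetuses the means of these other probes rose with age, from -1.83 to -1.49, from -2.08 to -1.78 and from -3.01 to -2.58. KIF23 was called by its other probe, with a difference of -0.70. TOP2A, the topoisomerase that untangles chromosomes, had a difference of -0.25 and an adjusted p of 0.0504 with limma. The probes of KIF11, a spindle kinesin, disagreed in sign, at 0.31 and -0.41, and neither passed. Of the spindle checkpoint genes, BUB1 had a difference of -0.40 and BUB3 one of 0.02 with an interval of -0.08 to 0.11.

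CDKN1A, the inhibitor of cyclin-dependent kinases that p53 induces, ranged from 1.30 to 3.55 (median 2.75) at day 90 and from 1.68 to 4.42 (median 3.49) at day 110. In 15 of the 31 fetuses of day 110 its level exceeded that of every fetus of day 90. The log2 difference was 0.66, or 1.58-fold higher (SE 0.14, adjusted p = 1.11e-04 with limma), and the other 2 tested probes gave 0.65 and 0.82 and were called as well. CDKN1B, the other inhibitor on the list, had a difference of -0.06 with an interval of -0.17 to 0.04.

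**Figure D2:**
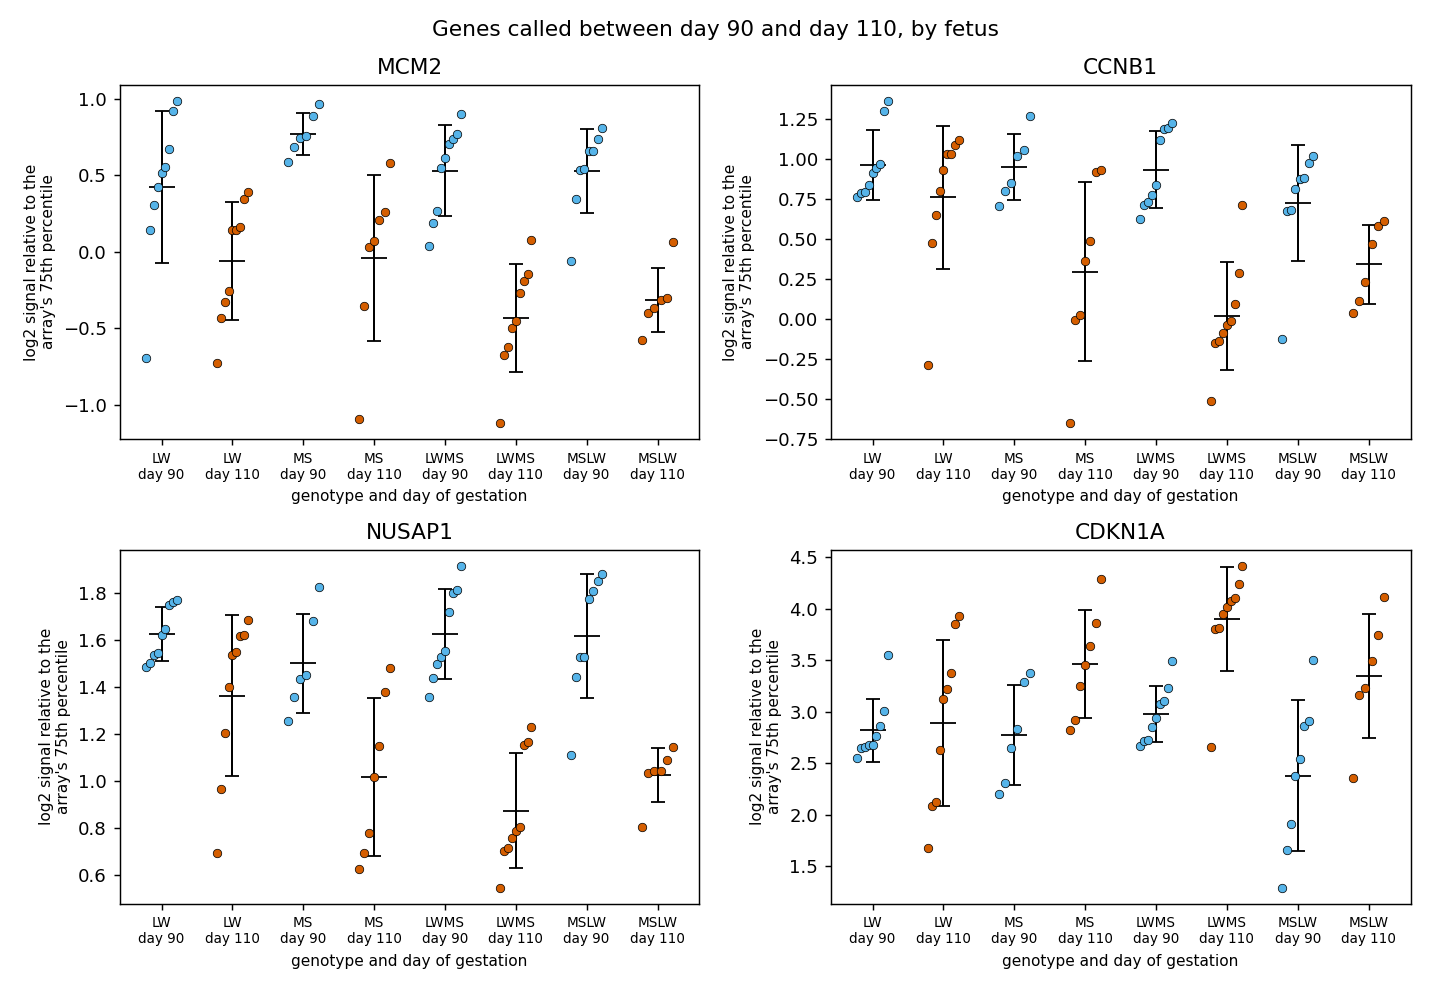
Levels of MCM2, CCNB1, NUSAP1 and CDKN1A (y axes, log2 signal relative to the array's 75th percentile) in each fetus, by genotype and day of gestation (x axes; blue, day 90; orange, day 110). Bars give mean and SD, and the fetuses of a group are sorted by level. In LWMS fetuses NUSAP1 lies between 1.36 and 1.92 at day 90 and between 0.55 and 1.23 at day 110.

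MKI67, the gene of the proliferation marker Ki-67, did not move with these genes. Its brightest probe ranged from 2.64 to 3.76 (median 2.97) at day 90 and from 2.26 to 3.91 (median 3.25) at day 110. The log2 difference of MKI67 was 0.11 with a 95% interval of -0.07 to 0.30 (adjusted p = 0.361 with limma), and its other 2 tested probes had differences of 0.01 and -0.36 that did not pass. E2F1, a transcription factor of the entry into replication, had a difference of 0.07 with an interval of -0.11 to 0.24.

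CCND1 could not be read with the same precision. Its levels ranged from -4.06 to 5.69 at day 90 and from -2.20 to 6.17 at day 110. The SD within groups was 2.21, against 0.17 to 0.68 (median 0.37) for the other 34 tested genes. The change with age was -0.24 with an interval of -1.34 to 0.86. CCND1 was singled out after its values were seen, as was KIF11. Across the 63 fetuses the CCND1 level ran against that of the RN18S1 probe, an 18S ribosomal RNA probe whose own level ranged from 0.10 to 4.15. Pearson's r was -0.80 and Spearman's rho -0.65 (permutation test, two-sided, p = 1e-05 for each, the smallest these permutations can give). The adjusted p was 2e-05 and 3e-05 over the 6 relations with ribosomal RNA probes that were computed. Without the 2 fetuses farthest from the median of RN18S1, r was -0.71, and within day 90 and day 110 it was -0.86 and -0.71. Over the other 5 probes r ranged from -0.76 to 0.21. The part of ribosomal RNA in the CCND1 values was not tested.

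The changes with age were then taken within each genotype. In LWMS fetuses 15 of 35 genes were called lower, beside 5.69% of all tested probes, and CDKN1A was called higher, beside 4.18%. In both directions together 16 genes were called, beside 9.86% of all probes. The genes called lower were AURKA, BUB1, CCNB1, CCNB2, CDC20, CDK1, CENPF, KIF23, MCM2, MCM3, NUSAP1, PLK1, PTTG1, TPX2 and UBE2C, and the median over the 35 genes was -0.57. In MS fetuses MCM2 was the member called (3.12% of all probes), in MSLW fetuses MCM2 and NUSAP1 were called (5.43%), and in LW fetuses CDK4 was called (4.76%). In LWMS fetuses the brightest CDK4 probe, at -0.47, lay under the minimum size, while the other tested CDK4 probes, at -0.58 and -0.64, were called. With the arrays centred on their medians the LWMS count was 3, of MCM2, CCNB1 and CDKN1A, and no member was called in the other genotypes. CDK4 was also not called in LW without fetuses 484 (day 90) and 469 (day 110). The medians over the 35 genes were -0.42 in MS, -0.34 in MSLW and -0.07 in LW fetuses, beside -0.03, -0.03 and 0.00 over all tested probes.

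In LWMS fetuses CCNB1 ranged from 0.62 to 1.22 (median 0.83, n = 9) at day 90 and from -0.51 to 0.71 (median -0.04, n = 9) at day 110. The log2 difference in LWMS was -0.92 (SE 0.17, adjusted p = 3.41e-05 with limma). In LW fetuses CCNB1 ranged from 0.76 to 1.36 (median 0.91, n = 9) at day 90 and from -0.29 to 1.12 (median 0.93, n = 9) at day 110, so that the medians of the ages were nearly equal. MCM2 ranged from 0.04 to 0.90 at day 90 and from -1.12 to 0.07 at day 110 in LWMS fetuses. The 2 ages of LWMS overlapped in MCM2 by this margin only, with a log2 difference of -0.96 (SE 0.17). In MS fetuses MCM2 fell from a range of 0.59 to 0.97 (n = 6) to one of -1.09 to 0.58 (n = 7), and in MSLW fetuses from -0.06 to 0.81 (n = 8) to -0.58 to 0.06 (n = 6). In LW fetuses MCM2 had a difference of -0.49 that was not called. NUSAP1 did not overlap between the ages in LWMS fetuses, where its difference was -0.75 (SE 0.12, adjusted p = 3.39e-06 with limma). In MSLW fetuses NUSAP1 had a difference of -0.59. Of the other genes called in LWMS, CDC20, CENPF, PLK1 and CCNB2 had differences of -0.86, -0.85, -0.83 and -0.81, and the remaining 8 lower genes lay between -0.59 and -0.76.

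CDKN1A in LWMS fetuses ranged from 2.67 to 3.49 (median 2.94) at day 90 and from 2.66 to 4.42 (median 4.02) at day 110. The single LWMS fetus at 2.66 lay apart from the other 8 of its group, which were at 3.81 or higher. The log2 difference was 0.92 in LWMS (adjusted p = 0.00726 with limma), 0.97 in MSLW, 0.69 in MS and 0.07 in LW fetuses, of which LWMS alone was called.

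**Figure D3:**
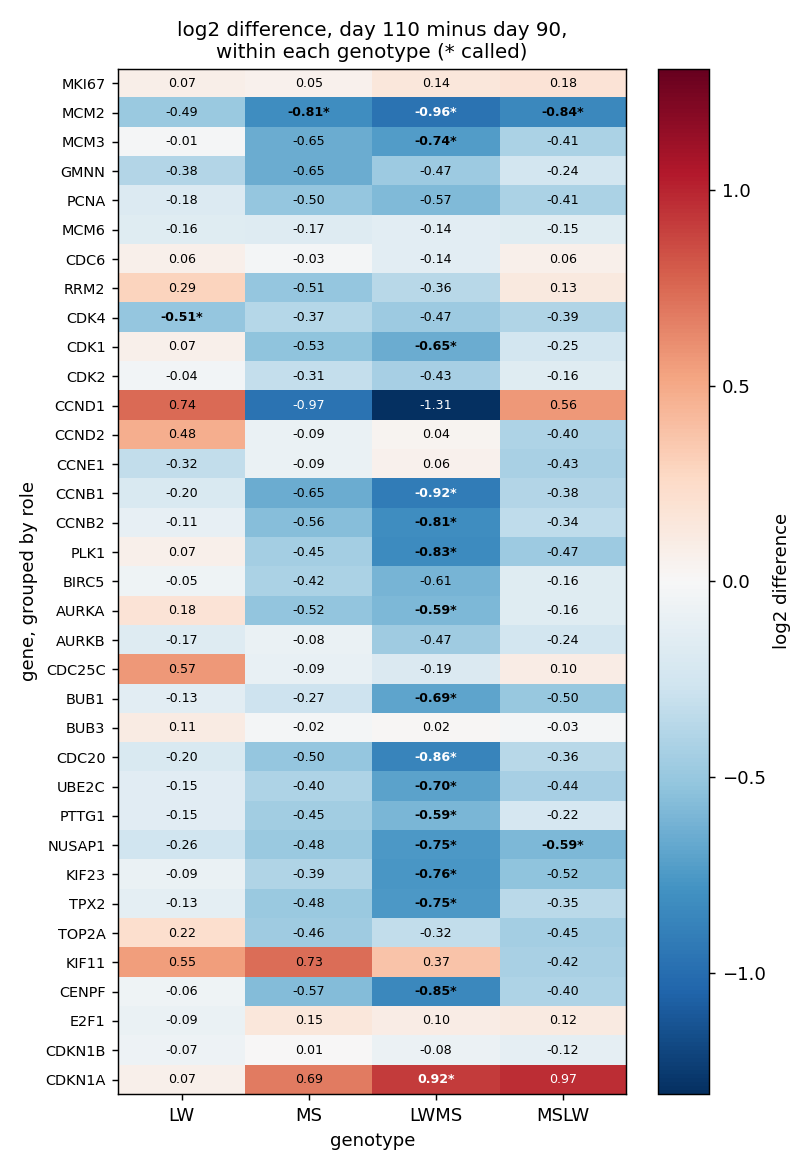
Log2 difference between day 110 and day 90 (colour and printed value) for each of the 35 tested genes (rows, grouped by role) in each genotype (columns). Bold values with an asterisk were called. LWMS holds 16 of them, and LW, MS and MSLW hold 1, 1 and 2.

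A gene called in LWMS and not in LW fetuses is not shown to differ between them, and the tests of the difference itself did not pass. The change with age in LWMS minus that in LW had a median of -0.49 over the 35 genes. In 17 genes its unadjusted p was under 0.05 with limma. Here and below, no share of all probes was taken at an unadjusted p, so such counts have no background beside them. In 0 genes the adjusted p was under 0.05, as it was in 0.037% of all probes. The smallest was that of AURKA, with a difference of -0.76 (SE 0.22, adjusted p = 0.245). For MSLW minus LW the median was -0.18, with 3 genes at an unadjusted p under 0.05 and 0 adjusted. For MS minus LW the median was -0.30, with 6 genes at an unadjusted p under 0.05 and 0 called, as were 0.0173% of all probes. The sow's breed by age, which compares fetuses of MS sows with those of LW sows, had a median of -0.26, with 12 genes at an unadjusted p under 0.05 and 0 called, beside 0.388% of all probes. A test of any difference among the 4 genotypes in their change with age passed at an adjusted p under 0.05 for 0 of the 35 genes with limma, beside 0.0913% of all probes. These contrasts share the LW fetuses, and all but the sow's breed by age and the MS contrast were chosen after the values by genotype were seen.

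Each fetus was also given a level over the 35 genes, the median of their levels after centring each gene on its mean. It ranged from -0.41 to 0.43 (median 0.11, n = 32) at day 90 and from -0.60 to 0.50 (median -0.18, n = 31) at day 110, so that the ages overlapped widely. At day 110 the LWMS fetuses ranged from -0.60 to 0.10 (median -0.37), the MS fetuses from -0.58 to 0.26 (median -0.18), the MSLW fetuses from -0.32 to -0.01 (median -0.14) and the LW fetuses from -0.34 to 0.50 (median 0.13). The 4 groups of day 90 had medians of 0.10 to 0.21. Within the 8 slides, each of which held both ages, the median age difference over the 35 genes was 0.01 on slide 1 and between -0.19 and -0.63 on the other 7. MCM2, CCNB1 and NUSAP1 were lower and CDKN1A was higher at day 110 on all 8 slides. These genes were picked by their calls on the same arrays, so this is no separate support for them. Genes that were not called, among them CDK4, AURKB and GMNN, were lower on all 8 slides as well.

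Markers of other cells moved with age as well, in counts to be read beside the 6.07% of all probes called higher and the 7.71% called lower. Of 12 tested villus enterocyte markers, 5 were called higher, among them FABP1 (log2 difference 2.55), ALPI (2.47) and SLC5A1 (1.41), while ANPEP and APOB were called lower, and their brightest gene, APOA1, had a difference of 0.17 that was not called. The villus marker level, made in the same way as the level of the 35 genes, was -1.12 to 0.24 (median -0.27) at day 90 and -3.81 to 1.48 (median 0.95) at day 110. At day 110 it was 0.10 to 1.33 in LWMS and -2.40 to 0.97 in LW fetuses. In 1 LW and 1 MS fetus of day 110 it was -2.40 and -3.81, below every fetus of day 90. Without these 2 fetuses 4 genes were again called over the 4 genotypes and 18 in LWMS fetuses, while MCM2 in MS and CDK4 in LW fetuses were no longer called. Of 6 tested erythroid markers, 4 were called lower at day 110, among them HBB with a log2 difference of -1.68 and AHSP with one of -1.80, and SLC4A1, the brightest, had a difference of -0.02. The erythroid marker level was -0.55 to 2.34 at day 90 and -1.54 to 0.33 at day 110. By genotype the median change of the 6 erythroid markers was -1.14 in LWMS, -1.40 in MS, -0.43 in MSLW and -0.24 in LW fetuses, and that of the 12 villus markers was 1.19, 0.24, 1.24 and 0.04. Of 7 tested crypt stem cell markers none was called with limma, and ASCL2 and PROM1, the brightest, had differences of -0.21 and 0.06. Of 7 smooth muscle markers ACTA2 was called, at -0.55, of 13 leukocyte markers CD163 was called, at 0.94, and of 5 endothelial markers none was called. Of 3 tested markers of tissues other than gut INS, the gene of insulin, was called, with a log2 difference of 4.18 (SE 0.53), by a probe above background on 37 of the 63 arrays. The part of cell composition in the changes of the 35 genes was not tested.

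**Figure D4:**
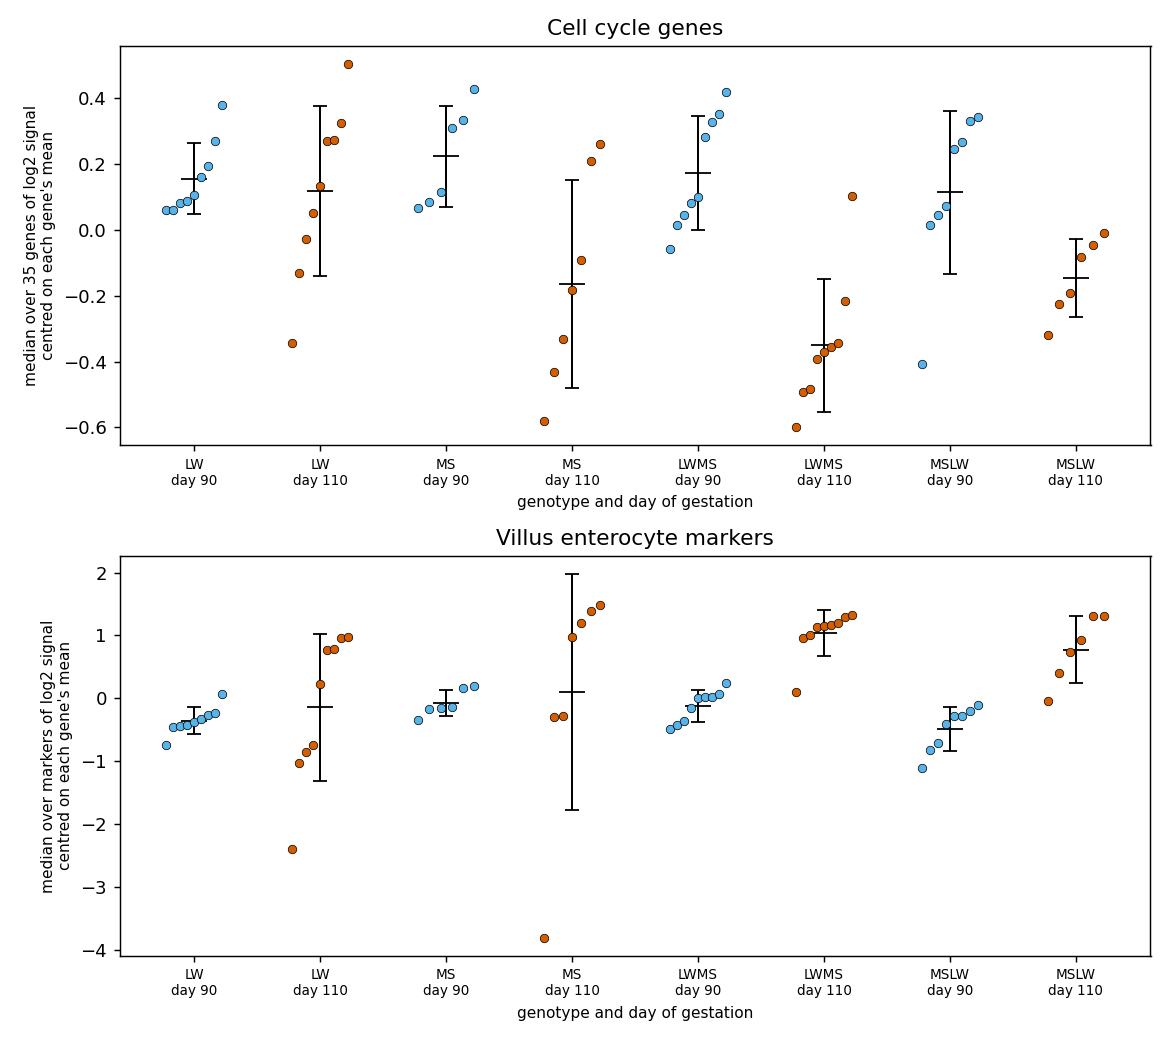
Level of the 35 cell cycle genes (upper panel) and of the 12 villus enterocyte markers (lower panel) in each fetus, as the median over genes of the log2 signal centred on each gene's mean (y axes), by genotype and day of gestation (x axes; blue, day 90; orange, day 110; bars, mean and SD). The LWMS fetuses of day 110 have the lowest median of the upper panel, -0.37.

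Between the purebred genotypes, 0 of the 35 genes were called at day 90 with limma, beside 3.58% of all tested probes. In 4 genes the unadjusted p was under 0.05 with limma, a count without such a share beside it. At day 110, AURKA and MCM3 were called lower in MS than in LW fetuses, beside 3.15% of all probes, and CCNE1 was called higher, beside 1.84%. In all, 3 of 35 genes were called, beside 4.99% of all probes. With the arrays centred on their medians CCNE1 alone was called, and with array weights 13 genes were, both without a share of all probes beside them. AURKA ranged from -1.40 to 0.04 (median -0.86, n = 7) in MS and from -0.41 to 0.90 (median 0.35, n = 9) in LW fetuses. The log2 difference of AURKA was -0.85, or 1.80-fold lower (SE 0.17, adjusted p = 2.63e-04 with limma), and its other 2 probes, at -1.02 and -0.85, were called too. At day 90 the brightest AURKA probe ranged from -0.45 to 0.23 in MS and from -0.35 to 0.33 in LW fetuses, so that the breeds overlapped over most of their range. The dimmer AURKA probes had day 90 medians of -3.53 and -3.86 in MS, beside -3.01 and -3.78 in LW fetuses. MCM3 ranged from -2.56 to -1.32 (median -1.76) in MS and from -1.69 to -0.69 (median -1.11) in LW fetuses of day 110, with a difference of -0.67 (SE 0.17). CCNE1, the cyclin of the entry into replication, was dim, well above background on 5 of the 7 MS arrays and 3 of the 9 LW arrays of day 110, so the size of its difference is uncertain. It lay at -4.71 to -3.29 in MS and -5.79 to -4.36 in LW fetuses of day 110, with a difference of 0.82 (SE 0.22, adjusted p = 0.00769). The median over the 35 genes was 0.06 at day 90 and -0.27 at day 110.

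Differences by the breed of the parents were averaged over both ages and called at an adjusted p under 0.05. By the breed of the sow, 7 of 35 genes were called, beside 16% of all tested probes, a share near that background. AURKA, BUB1 and CENPF were lower in fetuses of MS sows, with log2 differences of -0.34, -0.29 and -0.35, where 8.71% of all probes were lower. BUB3, CCNE1, CDKN1A and E2F1 were higher, by 0.32, 0.34, 0.42 and 0.24, where 7.26% of all probes were. With the arrays centred on their medians, 0 of the 35 genes were lower in fetuses of MS sows and 5 were higher. BUB3, a spindle checkpoint protein that dividing and resting cells both express, had the smallest adjusted p of these (1.60e-06 with limma, SE 0.048). At day 90 BUB3 ranged from 2.33 to 2.54 (median 2.44) in MS and from 1.98 to 2.70 (median 2.37) in LWMS fetuses, both of MS sows. It ranged from 1.85 to 2.17 (median 2.07) in LW and from 1.82 to 2.24 (median 2.07) in MSLW fetuses, both of LW sows. By this brightest probe the MS fetuses lay above all fetuses of LW sows at this age. By the BUB3 probe of another sequence, MS fetuses of day 90 ranged from 1.67 to 2.25 and LW fetuses from 1.56 to 2.21, so that they overlapped. At day 110 the medians of the brightest BUB3 probe were 2.42 in MS, 2.34 in LWMS, 2.12 in LW and 2.02 in MSLW fetuses, and the ranges overlapped. By the breed of the sire, CCNE1 was higher (0.37) and MCM6 lower (-0.24) in fetuses of MS sires, 2 of 35 genes beside 6.95% of all probes.

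**Figure D5:**
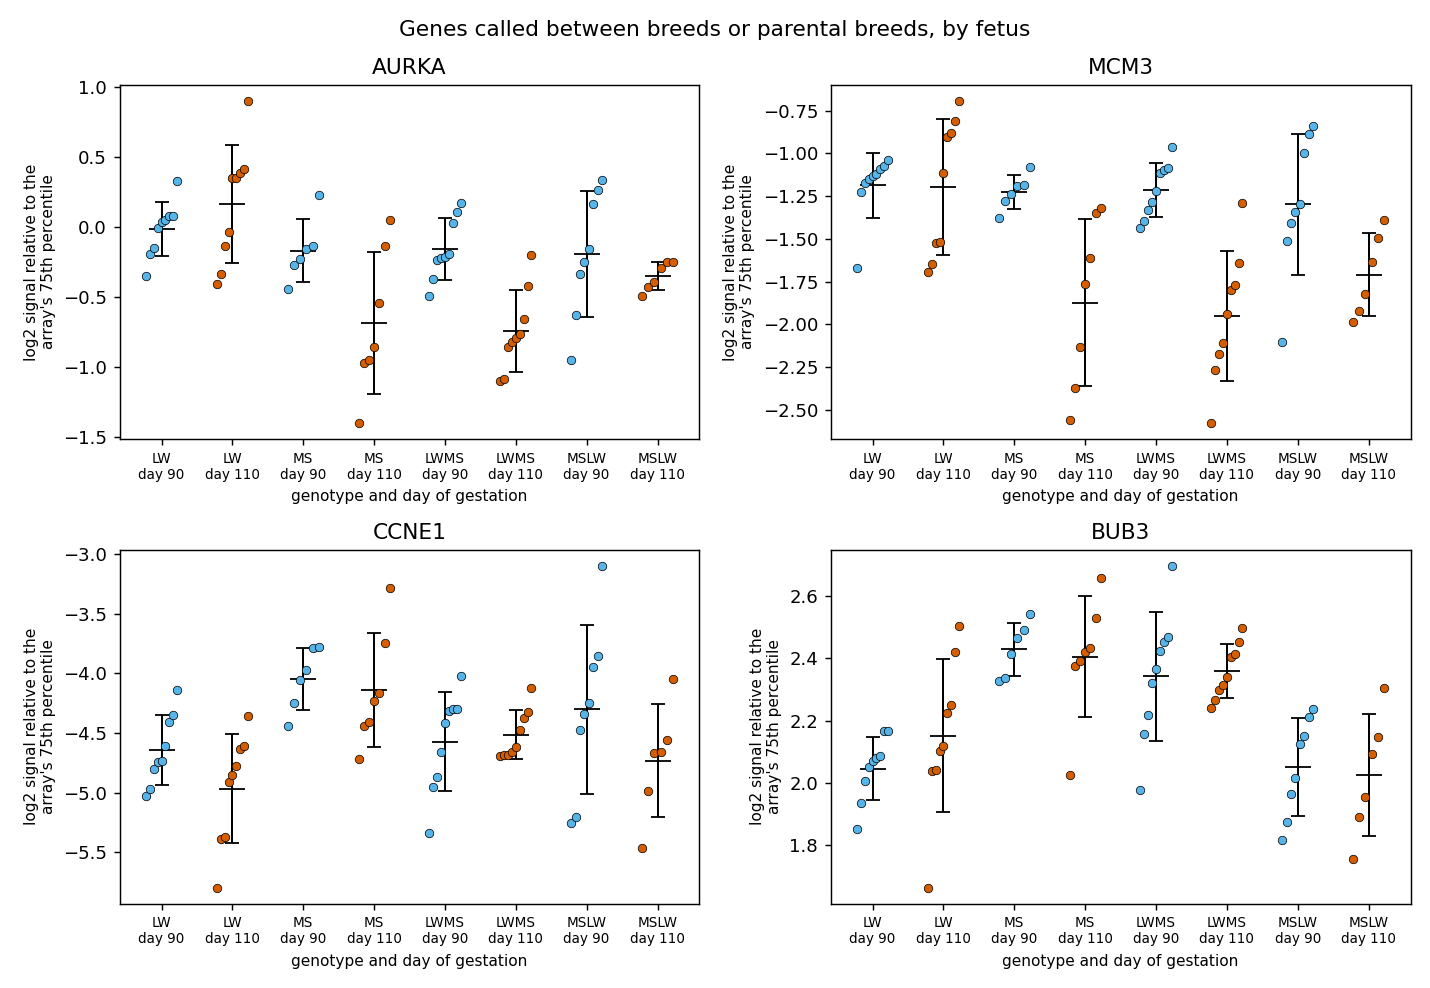
Levels of AURKA, MCM3, CCNE1 and BUB3 (y axes, log2 signal relative to the array's 75th percentile) in each fetus, by genotype and day of gestation (x axes; blue, day 90; orange, day 110; bars, mean and SD). At day 110, AURKA lies between -1.40 and 0.04 in MS and between -0.41 and 0.90 in LW fetuses.

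Other genes of the same processes were taken from lists of the field. Of 26 tested genes of DNA replication that are not members, PRIM1, which primes DNA synthesis, and DUT, which keeps uracil out of DNA, were called lower with age over the 4 genotypes, with log2 differences of -0.56 and -0.51, and none was called higher. These are 2 of 26 genes beside 7.71% of all tested probes, a share near that background. In LWMS fetuses 8 of the 26 were called lower, beside 5.69% of all probes, among them DUT (-0.76), PRIM1 (-0.68) and PRIM2 (-0.61). The median over the 26 genes was -0.30 over the genotypes, -0.49 in LWMS and -0.15 in LW fetuses. Of 33 further genes of mitosis, CDCA8 (-0.63) and NEK2 (-0.54) were called lower over the genotypes, 2 of 33 beside the same 7.71%. In LWMS fetuses 11 of the 33 were called lower, beside 5.69%, with NCAPH and SPC24 (both -0.83), ESPL1 (-0.80) and CDCA3 and PBK (both -0.79) among them. The median of the 33 was -0.23 over the genotypes, -0.53 in LWMS and 0.06 in LW fetuses.

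Of 29 tested genes of the G1 phase, pocket proteins and kinase inhibitors, 2 were called higher and 3 lower with age over the genotypes, beside 6.07% and 7.71% of all tested probes. CDKN2B, an inhibitor of CDK4 and CDK6, had a difference of 2.63 (SE 0.21), larger than any member, and E2F3 one of 0.52. WEE1, the kinase that holds back CDK1, had a difference of -1.05, the inhibitor CDKN1C one of -0.66 and TFDP2 one of -0.52. The WEE1, CDKN1C and CDCA8 probes were dim, above background on 32, 39 and 29 of the 63 arrays.

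No probe carried the names of 11 listed genes, MCM4, MCM5, MCM7, CDT1, TYMS, TK1, CCNE2, CCNA2, BUB1B, MAD2L1 and CENPA. A further 4 had probes that were too dim to test, RRM1, KIF20A, CENPE and FOXM1, and these 15 genes have no value here. Of the 35 tested genes, 21 were called in at least 1 of the 11 comparisons by their brightest probe, as were 33.6% of all tested probes. Among the rest, AURKB, BIRC5 and CDKN1B were called in some comparison by a dimmer probe.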

How the data were processed

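Jejunum RNA of 63 fetuses was measured on one-colour arrays on 8 slides, and the labels gave each fetus its group. Scanner intensity per spot was deposited by the authors, read with Agilent Feature Extraction 10.10.1.1 per the labels. They also deposited log2 values of 39446 probes, which by comparison with the scanner files are quantile-normalized median intensities. The log2 background-corrected intensity was taken minus the 75th percentile of the array, without the 1319 control spots and with outlier spots missing, so that levels depend on where that percentile lies. Spots of a probe were averaged. Tested probes were flagged well above background in 75% or more of the fetuses of some group. The model of 8 group means used limma 3.58.1 in R 4.3.3, and p-values are two-sided, adjusted by Benjamini-Hochberg. Intervals are 95%. The sow, a random effect in the study, was not a term. The number of arrays limits the precision.

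The members and lists were chosen with earlier results of these data known. Named with values were the members called in any comparison, of those not called the 2 largest and 2 smallest changes with age, MKI67 and PCNA, the largest called genes of other lists (1 of which is not reported here), and the brightest 2 and the called genes of marker lists. Alternatives were the authors' log2 values, normexp (offset 50), median centring, quantile normalization, no dim filter, a filter over all arrays, slide as a block, array weights, leaving out LW fetuses 484 and 469, and the mean of a gene's probes. The steps were tested on simulated data.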

Additional observations from a re-analysis of the deposited data

Results flagged for a closer look

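In groups of 6 to 9 fetuses, 11 of 96 sets of levels had 1 fetus far from the others of its group, by Dixon's criterion, which chance alone meets in about 1 of 20 groups. These are the levels of 11 genes and of the 35 genes together in 8 groups. LW fetus 484 of day 90 was the lowest of its group in MCM2 (-0.69, next 0.14) and MCM3 (-1.67, next -1.23) and the highest in CDKN1A (3.55, next 3.01). MSLW fetus 450 of day 90 was the lowest in CCNB1 (-0.12, next 0.67) and in the level of the 35 genes (-0.41, next 0.02). At day 110, CCNB1 was lowest in LW fetus 670 (-0.29, next 0.47), NUSAP1 in MSLW fetus 851 (0.80, next 1.04) and CDKN1A in LWMS fetus 609 (2.66, next 3.81). MKI67 was lowest in MS fetus 632 of day 110 (2.26, next 3.16), the fetus with the lowest villus marker level. CCND1 was lowest in MSLW fetus 899 of day 90 (-2.81, next 3.41) and highest in MSLW fetus 476 of day 110 (6.17, next 4.13).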

How the results depend on the processing

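The median difference with age over the 35 genes stayed between -0.26 and -0.34 under every alternative run. There were 4 genes called with age over the genotypes, and 2 to 5 under the alternatives that kept the minimum size, 2 of them with median centring. Without the minimum size there were 22, and 18 to 21 under the alternatives except median centring, which gave 11. In LWMS fetuses 16 genes were called and 13 to 19 under the alternatives except median centring, which gave 3 with and 3 without the minimum size. Median centring also gave 1 gene between purebreds at day 110 and 0 for age in LW, MS and MSLW and for the sire's breed. It moved the median of all probes by 0.14 for age in LWMS, and of the 38 calls and values followed for single genes, 26 were no longer called under it. The single calls in LW and MS were each lost with the authors' values, quantile normalization, no dim filter and without the 2 fetuses of lowest villus marker level (0 each). The call in LW was also lost without fetuses 484 and 469 and without the arrays of highest and lowest share above background (fetuses 823 and 469), and that in MS with the slide as a block. Array weights raised most counts, to 6 for age in MS, 4 for MSLW, 13 between purebreds at day 110, 18 for the sow's breed, 5 for the sire's breed, 2 for the sow's breed by age and 1 at day 90. The slide as a block gave 4 genes for the sire's breed and 1 for MS against LW at day 90, as did no minimum size for the latter. The sire's count was 1 with normexp, quantile normalization, no dim filter, a filter over all arrays and without the 2 fetuses of lowest villus marker level. No alternative turned the direction of a gene called or of the median. The last 2 omissions and the count without a minimum size were chosen after seeing the data, and the causes of these differences were not tested. No paired analysis was possible because the fetus numbers are unique to a fetus. Dim genes such as CCNE1 are limited by signal over background. The shares of all probes printed above belong to the main processing. Counts under the alternatives, here and above, have no such share beside them and cannot be set against the array as a whole.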
